A study of Drosophila melanogaster with 3 samples.

Results

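The NK homeobox genes described here are tin, bap, lbl, lbe, C15, slou and Dr, 7 genes of 13945 protein-coding genes. They are listed by name and not by a cutoff on any measured value, but were chosen with earlier results of these data known. In Drosophila melanogaster 6 of them lie within 178.2 kb of chromosome arm 3R, from tin to slou, and Dr lies apart on the same arm. NK genes encode homeodomain transcription factors that assign fates to mesoderm, muscle, heart and nerve cells in the embryo. The genome positions bound by Pleiohomeotic-like (Phol) were measured by chromatin immunoprecipitation and sequencing (ChIP-seq) with an antibody against green fluorescent protein (GFP). The embryos came from a stable transgenic line with GFP at the C terminus of Phol, were of mixed sex and 0 to 16 hours old, and were taken whole. There were 3 biological replicates by their labels, all of the same kind of sample, with no second condition to set against them. Whole embryos mix all cell types, so a peak does not say in which cells Phol was bound. Whether the line also carries untagged Phol is not stated.

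Phol and its paralog Pho are zinc-finger proteins that recognise a short DNA word and recruit Polycomb group complexes. These complexes keep developmental regulators silent in cells where they should not act, and homeobox genes are their classic targets. In the fly embryo tin specifies heart and visceral mesoderm and activates bap, which drives the muscle of the gut. The ladybird genes lbl and lbe and the gene slou give single body wall muscles and heart cells their identity. C15, also called clawless, is known for patterning the tip of the leg, and Dr, also called msh, acts in muscle precursors and in the dorsal part of the nerve cord.

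All 5 peak lists were deposited on the dm6 build, with coordinates given here as 1-based positions of release 6. Each replicate list and the list from pooled reads hold 30000 peaks, ranked here by the deposited signal value. The strongest 10264 pooled peaks form the authors' list of reproducible peaks. In this list 23 summits lay in the cluster, in a member gene or within 10 kb of one, and 60 weaker summits of the pooled list lay there too. The rank of a peak is given as a percent of the list, so that small values are strong peaks. A promoter summit is one within 500 bp of an annotated transcript start.

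Sequences of 12 of these summits, with 50 bp to either side, are given first, because they show which peaks at these genes hold the Phol word and which do not. They are read from the forward strand of 3R, and capitals mark the Pho and Phol core word GCCAT on either strand, lengthened to GCCATNTT where that extended form is present. The summits shown are those at member promoters, the strongest near each member, and those with GCCATNTT outside transcribed exons. Names give the nearest member and the distance of the summit from its start.
tin, 178 bp upstream (chr3R:21378749-21378849): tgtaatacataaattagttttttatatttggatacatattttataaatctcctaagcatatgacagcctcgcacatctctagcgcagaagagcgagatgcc
bap, 1098 bp upstream (chr3R:21387732-21387832): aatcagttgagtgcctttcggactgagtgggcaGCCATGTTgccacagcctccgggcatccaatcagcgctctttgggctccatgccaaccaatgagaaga
lbl, 14010 bp downstream, intronic (chr3R:21420073-21420173): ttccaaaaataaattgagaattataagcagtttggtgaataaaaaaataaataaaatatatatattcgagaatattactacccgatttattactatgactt
lbe, 54 bp upstream (chr3R:21446541-21446641): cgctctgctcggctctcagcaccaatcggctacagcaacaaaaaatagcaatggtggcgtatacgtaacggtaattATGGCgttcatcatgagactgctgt
lbe, 24621 bp upstream (chr3R:21471108-21471208): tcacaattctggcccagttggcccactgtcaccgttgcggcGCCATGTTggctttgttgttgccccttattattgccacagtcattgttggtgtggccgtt
C15, 20146 bp upstream (chr3R:21479790-21479890): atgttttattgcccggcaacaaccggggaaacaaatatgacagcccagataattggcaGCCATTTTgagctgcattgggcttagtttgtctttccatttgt
C15, 434 bp upstream (chr3R:21499502-21499602): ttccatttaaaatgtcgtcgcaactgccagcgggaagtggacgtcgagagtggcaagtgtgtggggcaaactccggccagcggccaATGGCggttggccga
C15, 11130 bp downstream, intronic (chr3R:21511066-21511166): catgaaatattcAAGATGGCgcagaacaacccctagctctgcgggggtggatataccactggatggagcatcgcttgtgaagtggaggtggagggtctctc
C15, 20361 bp downstream, before sp3 (chr3R:21520297-21520397): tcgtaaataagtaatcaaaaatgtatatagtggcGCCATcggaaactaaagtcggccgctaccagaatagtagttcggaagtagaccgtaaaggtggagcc
slou, 9812 bp upstream (chr3R:21566944-21567044): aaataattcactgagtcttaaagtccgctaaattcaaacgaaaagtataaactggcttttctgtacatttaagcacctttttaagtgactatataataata
Dr, 144 bp upstream (chr3R:29556192-29556292): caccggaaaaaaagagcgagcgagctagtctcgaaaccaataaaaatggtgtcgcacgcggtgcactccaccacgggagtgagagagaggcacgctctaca
Dr, 10803 bp downstream, past the gene's end (chr3R:29567139-29567239): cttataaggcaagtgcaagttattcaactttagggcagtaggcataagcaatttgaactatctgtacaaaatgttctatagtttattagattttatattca

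In the reproducible list Phol was at the promoters of tin, lbe, Dr and C15, and not at those of bap, lbl and slou. The count of 4 in 7 members (57.1%) stands beside 40.8% of all protein-coding genes, and with 7 genes it is not distinguishable from that share. Over the strongest 10264 peaks of each replicate the count was 4, 3 and 4 members, with a mean of 3.67 ± 0.577 (SD, n = 3), against 40.5% ± 3.13 of all protein-coding genes (SD, n = 3). The promoters of tin, lbe and Dr were occupied in all 3 replicates at that depth of the lists, which holds for 34.2% of all protein-coding genes. In the whole pooled list lbl and slou had a weak promoter peak too, which gave 6 of 7 members, beside 55.4% of all protein-coding genes.

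**Figure D1:**
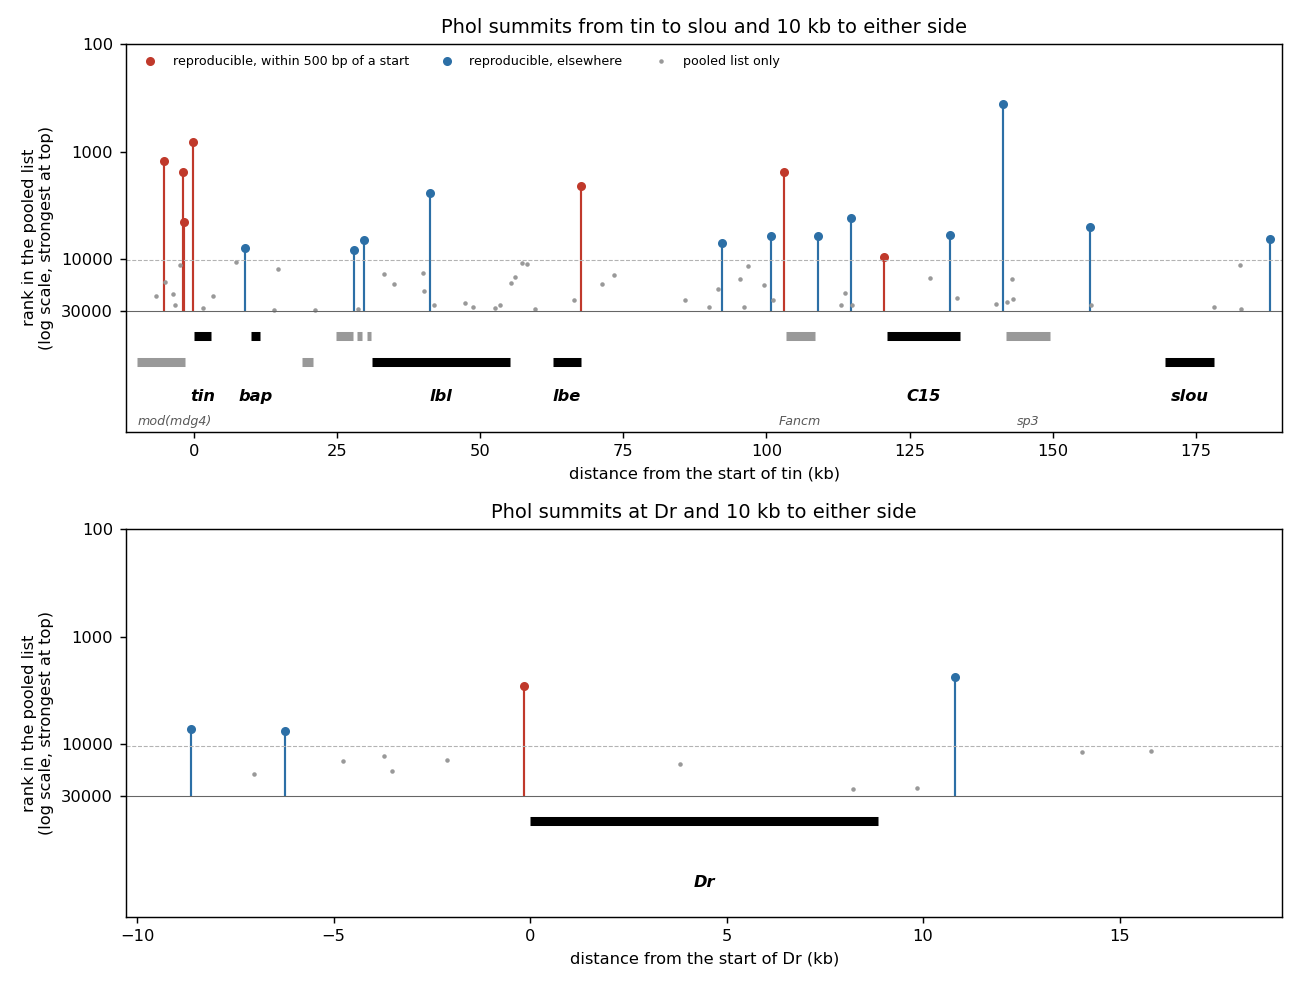
Phol summits from tin to slou (top) and at Dr (bottom), each with 10 kb to either side, plotted by distance in kb from the start of tin or Dr (x axis) and by rank in the pooled list (y axis, log scale, strongest at the top). Red and blue stems are reproducible summits at promoters and elsewhere, grey dots are weaker pooled summits, the dashed line is rank 10264, black bars are member genes and grey bars other protein-coding genes except precursor units of mod(mdg4) (plus strand above minus strand). The strongest summits are those before sp3 (rank 360) and at tin (rank 811), and no reproducible summit lies in slou.

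The start of tin held the strongest peak of any member promoter. The gene lies on the plus strand of 3R (21378977 to 21381970), and the peak spanned 21378561 to 21379032, with its summit in intergenic DNA 178 bp upstream of the start. Its rank was 811 in the pooled list, and it stood at 2.36% of the list in replicate 1, 2.98% in replicate 2 and 2.82% in replicate 3, a mean of 2.72% ± 0.326 (SD, n = 3). Of the protein-coding genes with a promoter peak, 14.1% had one as strong or stronger. The body of tin held no reproducible summit.

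The neighbour of tin on the other side is mod(mdg4), which encodes chromatin and insulator proteins and whose transcripts are joined from several precursor units. The 10 kb upstream of tin reach into it, and 3 further reproducible summits there lay at starts of mod(mdg4) and its precursor unit pre-mod(mdg4)-O. Their ranks were 1231, 1558 and 4495, and those at ranks 1558 and 4495 were matched to the same peak in each replicate. The tin promoter peak was stronger than these in every replicate, and these 3 belong by position to mod(mdg4).

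bap had no promoter peak in any list. The gene (3R, plus strand, 21388880 to 21390449) had a single reproducible summit nearby, in the intergenic DNA 1098 bp upstream of its start (21387572 to 21387991). It was weak, at rank 7897, and stood at 23.8%, 36.7% and 20.8% of the lists of replicates 1, 2 and 3. Only replicates 1 and 3 placed it among their strongest 10264 peaks. The word GCCATGTT begins at position 21387765 and its centre is 13.5 bp from the summit. A further pooled summit 2619 bp upstream, at rank 10642, fell just short of the reproducible list.

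The ladybird genes differed from each other at their starts. lbe (3R, minus strand, 21441577 to 21446537) had a promoter peak at rank 2087 (21446426 to 21446747), with the summit 54 bp upstream of the start. It stood at 4.26%, 8.84% and 8.17% of the lists of replicates 1, 2 and 3, a mean of 7.09% ± 2.47 (SD, n = 3). The start of lbl (3R, minus strand, 21409979 to 21434133) had only a weak peak in the pooled list, at rank 16530, 268 bp upstream. That peak stood at 55.5%, 96.6% and 49.3% of the replicate lists, outside the strongest 10264 peaks of each replicate.

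The strong peak of lbl was inside the gene. An intronic summit 14010 bp downstream of its start (21419962 to 21420275) had rank 2437 and stood at 8.38%, 9.58% and 7.68% of the lists of replicates 1, 2 and 3. Its mean of 8.55% ± 0.960 (SD, n = 3) lay within the range of the lbe promoter peak. A pair of weaker reproducible summits lay beyond the 3′ end of lbl, 522 bp from the start of CheB93a and 518 bp from that of CheB93b. Replicate 3 placed both lower, at 38.5% and 43.7%, against 22.6% and 18.3% in replicate 1 and 24.6% and 18.1% in replicate 2. Between lbl and lbe there was no reproducible summit, and the best pooled summits there had ranks 10877 and 11052.

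C15 had a weak promoter peak and stronger peaks around it. The gene (3R, plus strand, 21499986 to 21512814) had a summit 434 bp upstream of its start (21499342 to 21499761), which lay closer to the start of lncRNA:CR44032, at 147 bp. This peak had rank 9625, near the end of the reproducible list, and stood at 26.9%, 40.3% and 28.3% of the lists of replicates 1, 2 and 3. Replicate 2 did not hold it among its strongest 10264 peaks. The call ended when pooled peaks were ranked by their mean replicate rank, and without replicate 1 or without replicate 3, and also with a promoter distance of 200 bp.

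The strongest peak between tin and slou lay downstream of C15, 581 bp before the start of sp3. It spanned 21520179 to 21520573, had rank 360, and stood at 0.767%, 1.31% and 1.43% of the lists of replicates 1, 2 and 3. With a promoter distance of 1000 bp it counts as a promoter peak of sp3, and its position gives no reason to assign it to C15. The intronic summit of C15 (21511036 to 21511187) had rank 5934 and stood at 22.8%, 23.6% and 16.1% of the replicate lists. Another at rank 4157 lay 6242 bp upstream of the gene.

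slou had little Phol nearby. The gene (3R, minus strand, 21548661 to 21557182) had no reproducible summit in its body or at its start. The pooled list held a peak 61 bp from its start at rank 27982, and among the replicates only replicate 1 had one there, at 52.6% of its list. The nearest reproducible summit was 9812 bp upstream (21566784 to 21567203), at rank 6487 and 23.3% ± 4.01 of the replicate lists (SD, n = 3). It lay nearer to the start of CG15498, at 2155 bp.

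Dr, away from the cluster, had peaks at its start and on both sides. The gene (3R, plus strand, 29556386 to 29565244) is the sole protein-coding gene within 10 kb. Its promoter peak (29556111 to 29556394) had rank 2847, with the summit 144 bp upstream, and stood at 12.0%, 9.48% and 8.65% of the lists of replicates 1, 2 and 3. A peak past its 3′ end (29567048 to 29567315), 10803 bp from the start, had rank 2376 and stood at 7.58%, 7.89% and 8.77%. The ranges of these peaks overlapped among the replicates. The upstream summits at 8620 bp and 6225 bp had ranks 7130 and 7490.

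**Figure D2:**
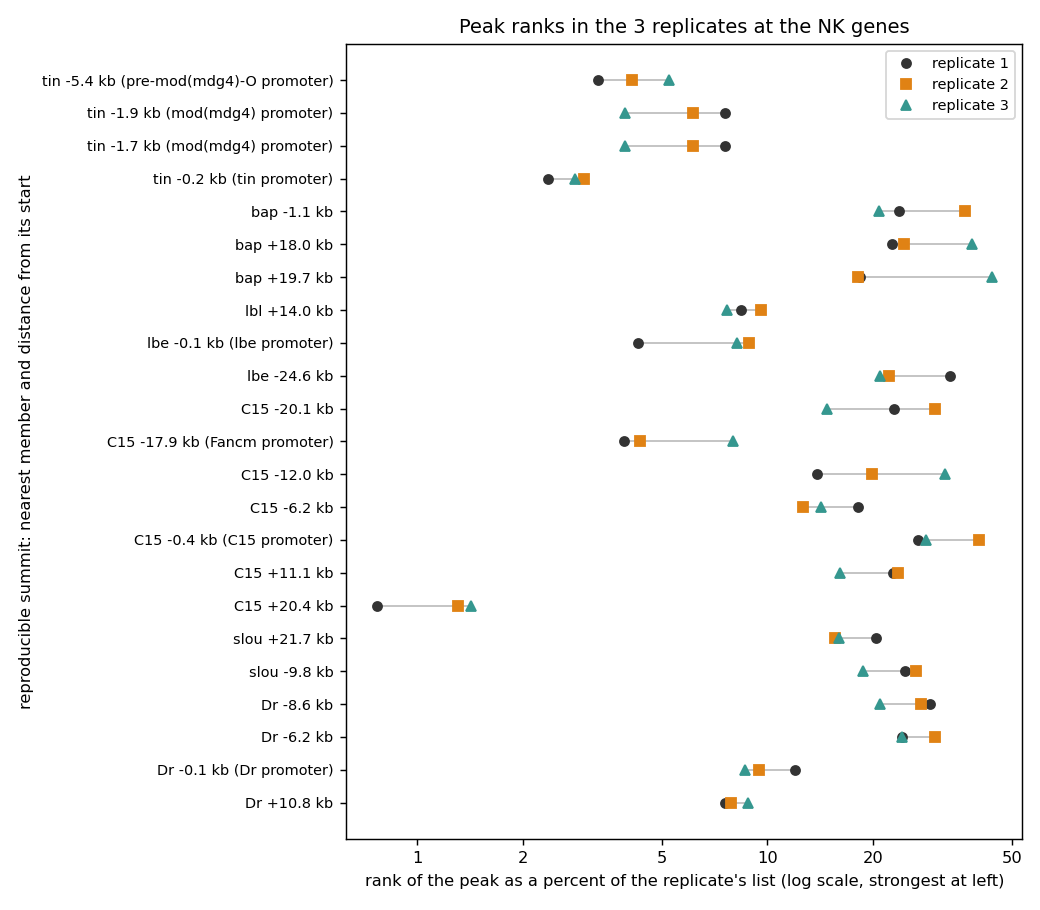
Rank of each of the 23 reproducible summits in the 3 replicates, as a percent of the replicate's list of 30000 peaks (x axis, log scale, strongest at the left). Rows run along the arm and give the nearest member with the distance from its start in kb, negative being upstream. The rows of the mod(mdg4) summits at ranks 1558 and 4495 show the same replicate peaks. The points of a row lie close together for tin (2.36% to 2.98%) and farther apart for lbe (4.26% to 8.84%) and for the summit near CheB93b (18.1% to 43.7%).

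In the order of their strength, the occupied promoters were those of tin (2.72% ± 0.326), lbe (7.09% ± 2.47), Dr (10.04% ± 1.74) and C15 (31.8% ± 7.38; SD, n = 3 each). This order held in each of the 3 replicates. For lbe and Dr the gap was small in replicate 2 (8.84% and 9.48%) and replicate 3 (8.17% and 8.65%), and their ranges over the replicates overlapped. The ranges of tin and lbe did not overlap, nor did those of Dr and C15. An exact paired test of 3 replicates cannot reach the usual threshold, so none is given. The reproducible list was kept for agreement between replicates, and how many of all its summits match in the full lists was not counted. All 23 reproducible summits here were matched within 250 bp in all 3 full replicate lists. Of them, 19 (82.6%) were among the strongest 10264 peaks of every replicate, beside 80.1% of all reproducible summits. Both counts include the summit at rank 4495 at mod(mdg4), whose matches were the same replicate peaks as those of the summit at rank 1558. The largest distance between a summit and its matches in the replicates had a median of 25 bp and a maximum of 214 bp. It was within 50 bp for 18 of the 23 summits. Matches were sought only within 250 bp, and these distances were not measured over all reproducible summits.

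The share of promoter summits around these genes depended on how a promoter was counted and on the depth of the list. Of the 18 reproducible summits in member genes or within 10 kb, 7 were promoter summits of any gene (38.9%), beside 49.5% of all reproducible summits, and the replicates gave 39.7% ± 3.75 (SD, n = 3). Only 4 of these 7 lay at member starts, and the others at mod(mdg4). With a promoter distance of 1000 bp the share was 55.6%, beside 58.7% of all reproducible summits. In the strongest 5132 reproducible peaks, where 10 of the 18 summits were left, it was 60%, beside 55.2% of all summits of that list. Over all 23 summits, 18 were intergenic, 4 intronic and 1 in a 5′ UTR, and 0 were in coding exons. The 8 promoter summits had a median rank of 1822.5 and the 15 others of 6113, against 4545.5 for the promoter summits of the genome and 5712.5 for its other summits. Of these 8, 3 lay at mod(mdg4) and 1 at the gene Fancm, and the 4 at member starts had a median rank of 2467.

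The cluster was neither rich nor poor in Phol summits. Its 178.2 kb, from the outer end of tin to that of slou, held 14 reproducible summits, 3 of them at promoters (lbe, C15 and the DNA repair gene Fancm). The tin promoter summit lies just outside this interval. Of 748 tiles of the same length on the 6 arms, the median tile held 13 summits (quartiles 7 and 20), and 49.5% of tiles held as many as the cluster or more. These tiles include gene-poor DNA near the centromeres, where some held none. Every member had a reproducible summit in its body or within 10 kb, as did 80.3% of protein-coding genes. The members had a median of 3 such summits, and so did all protein-coding genes (quartiles 1 and 4). tin had 5, Dr and C15 had 4, lbl had 3, and bap, lbe and slou had 1.

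The NK cluster was set against the Hox clusters of the same arm, which are known Polycomb targets. Over the strongest 10264 peaks of the replicates, the NK cluster held 8.04 ± 0.648 summits per 100 kb, against 15.1 ± 0.484 from Ubx to Abd-B in the bithorax complex and 11.7 ± 1.37 from lab to Antp in the Antennapedia complex (SD, n = 3 each). The NK cluster was lower in 3 of 3 replicates in both comparisons. The difference was -7.06 ± 1.06 summits per 100 kb against the bithorax complex and -3.70 ± 2.02 against the Antennapedia complex (SD, n = 3). An exact paired permutation test gave p = 0.25 for both, two-sided, the smallest that 3 replicates allow. It compares replicate lists over the same regions, so it does not measure the spread between regions. The interval from tin to slou leaves out the promoter summit of tin. Adding 10 kb to either end takes it in, and in the reproducible list also 3 summits at mod(mdg4) and 1 upstream of slou. The Hox complexes were not lengthened. With these ends the NK cluster held 11.6, 10.1 and 9.08 summits per 100 kb in replicates 1, 2 and 3. It was then still lower than the bithorax complex in 3 of 3 replicates, with a difference of -4.84 ± 1.75 (SD, n = 3; exact p = 0.25), but lower than the Antennapedia complex in only 2 of 3, with a difference of -1.48 ± 2.50 (SD, n = 3; exact p = 0.5). Promoter summits made up 21.4% of the summits in the NK cluster, 9.80% in the bithorax complex and 20.5% in the Antennapedia complex.

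**Figure D3:**
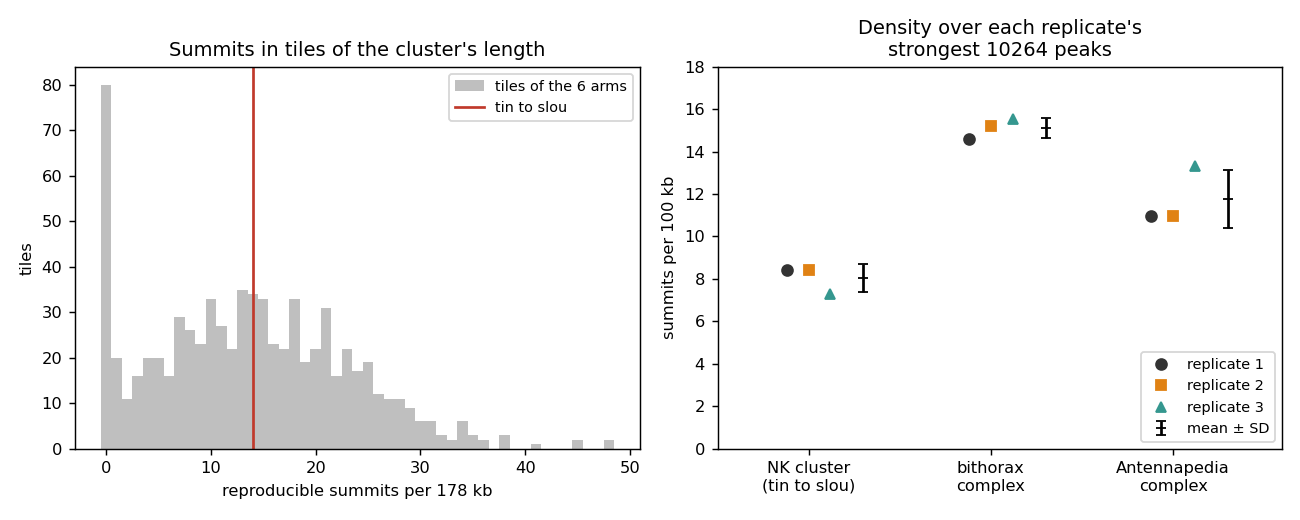
Left, reproducible summits in 748 tiles of the cluster's length on the 6 arms (grey bars, number of tiles) and in the interval from tin to slou (red line, 14 summits). Right, summits per 100 kb over the strongest 10264 peaks of each replicate in the NK cluster and the Hox complexes, with the mean and SD. The NK cluster lies near the median tile (13) and below both Hox complexes in every replicate over this interval.

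The extended Phol word GCCATNTT was found at several summits of the cluster away from promoters. It was within 50 bp of 5 of the 23 summits (21.7%), beside 6.63% of all reproducible summits. It was at 0 of 46 windows placed 500 bp to either side of the 23. Words in the flanks of all reproducible summits were not counted, so the flank counts have no such share beside them. The 5 summits with the extended word are the summit upstream of bap, those 24621 bp upstream of lbe and 20146 bp upstream of C15, the intronic summit of C15, and a summit of mod(mdg4). Among summits away from promoters it was at 4 of 15 (26.7%), beside 5.98% of all such summits, and among promoter summits at 1 of 8 (12.5%), beside 7.30%. The centre of the word was 5.5 to 34.5 bp from the summit in the 4 shown above, which read GCCATGTT at bap and upstream of lbe, GCCATTTT upstream of C15 and GCCATCTT in the C15 intron. These 4 had ranks of 5934 to 7897, beside a median rank of 5712.5 for all reproducible summits away from promoters. In member genes and their 10 kb the word was at 3 of the 18 summits within 50 bp and at 5 within 100 bp. The share of all reproducible summits was not counted for the wider window, so the rise cannot be judged. Over the strongest 10264 peaks it was at 3 of 22 such summits in replicate 1, 3 of 18 in replicate 2 and 3 of 16 in replicate 3, beside 5.74%, 6.11% and 7.47% of all those peaks.

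The core word GCCAT, which the extended word contains, was at 11 of the 23 summits (47.8%), beside 19.6% of all reproducible summits and 26.1% of the flanking windows. It was at the promoter summits of lbe and C15 and at the strong summit before sp3. The promoter summits of tin and Dr, the intronic summit of lbl and the peak past the end of Dr did not hold GCCAT within 50 bp. Summits at the NK genes were richer in G and C, with a median of 43.6% against 31.7% over all reproducible summits. With the core word the medians were 47.5% at the NK genes and 41.6% over all summits, and without it 28.7% and 29.7%. The part of base composition in the word counts was not tested.

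The word of the GAGA factor, another protein that binds at Polycomb target genes, was mostly at promoters. GAGAG was at 5 of the 23 summits (21.7%), beside 7.75% of all reproducible summits, and at 9 of the 46 flanking windows (19.6%). It was at the promoter summits of lbe, C15, Dr and Fancm and at the intronic summit of C15. Of the 8 promoter summits 4 held it, beside 7.17% of all promoter summits. The homeodomain core TAATTA was at 3 summits, the promoter of lbe and both summits upstream of Dr (13.0%, beside 10.2% of all summits). The word TCAAGTG, read by Tinman itself, was at 0 of the 23 summits, beside 1.33% of all. The words GTGTGTGT, CAGGTA, TATCGATA and GATAAG were each at 1 summit (4.35%), beside 1.24%, 1.78%, 3.11% and 5.50% of all summits.

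**Figure D4:**
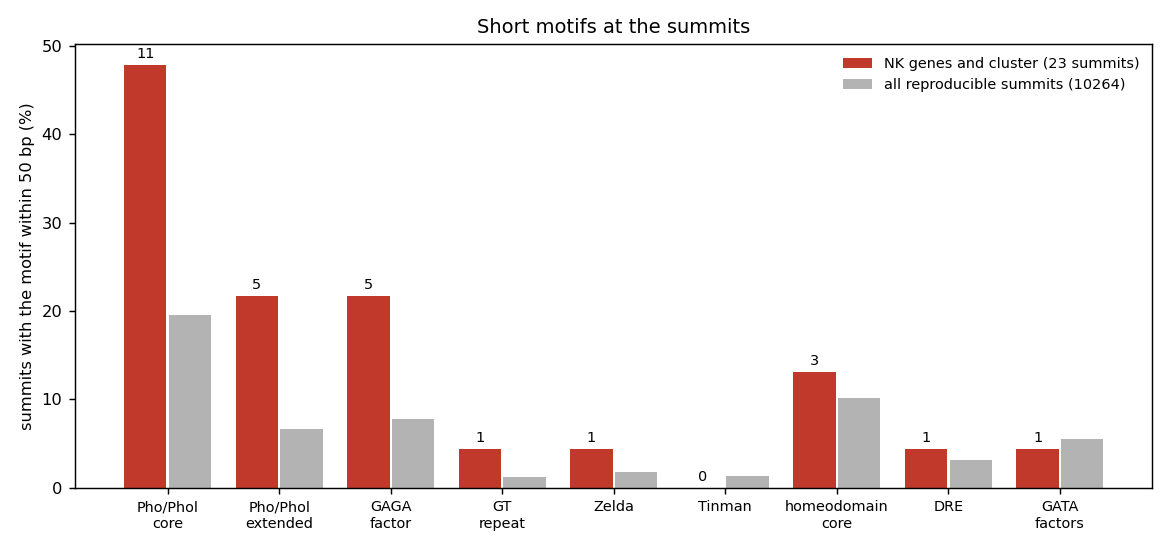
Share of summits with each short motif within 50 bp (y axis, percent) for the 23 reproducible summits at the NK genes and cluster (red, number of summits printed above) and for all 10264 reproducible summits (grey). The core and extended Pho and Phol words (47.8% and 21.7%, beside 19.6% and 6.63%) and the GAGA factor word (21.7% beside 7.75%) differ most in share.

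Of the 60 weaker pooled summits around these genes, 32 were matched in all 3 full replicate lists, beside 48.7% of all weaker pooled summits. At promoters lay 8 of them (13.3%), beside 24.7% of all weaker pooled summits. GCCATNTT was at 5 of them (8.33%), beside 4.39% of all 19735 weaker pooled summits, and GCCAT at 31.7%, beside 23.0%.

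Some other NK-like homeobox genes had Phol at their promoters. Of 15 such genes (vnd, scro, B-H1, B-H2, HGTX, NK7.1, Hmx, lms, bsh, H2.0, ems, E5, Dll, Dbx and HHEX), 4 had a promoter summit (26.7%, beside 40.8% of all protein-coding genes), and the replicates gave 4.67 ± 1.15 (SD, n = 3). NK7.1 had the strongest, at rank 541 and 1.80% ± 0.174 of the replicate lists, stronger in each replicate than that of tin, and 12 reproducible summits lay in its body or within 10 kb. B-H1, a Bar gene of eye and nerve cells, had rank 1406, ems, a head gap gene, rank 4877, and H2.0, expressed in visceral mesoderm, rank 4897. With a promoter distance of 200 bp the count was 1 of 15, beside 31.8% of all protein-coding genes.

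Among 16 regulators of mesoderm, heart and muscle that work beside the NK genes, 11 had a promoter summit (68.8%, beside 40.8% of all protein-coding genes), with 10.7 ± 0.577 in the replicates (SD, n = 3). The strongest was at Poxm, a Pax gene of muscle precursors (rank 339, 1.22% ± 0.361). Next came the T-box genes mid (rank 877) and Doc3 (rank 1815), the LIM-homeodomain gene ap (rank 2472) and Doc1 (rank 3490). The 5 without a promoter summit were bin, Hand, H15, zfh1 and srp. bin encodes a forkhead factor that acts with bap in the visceral mesoderm, and neither had a promoter summit in the reproducible list. The start of bin had a peak in replicate 1, at 98.9% of its list, and that of bap had none in any list. These lists were compared by their shares alone, without a test.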

How the data were processed

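Peaks of tagged Phol in 3 replicates of whole embryos were analysed. Per the deposited readme, the authors called peaks on dm6 against a control alignment, for each replicate and for the replicates together, and kept reproducible peaks by an irreproducible discovery rate. Which aligner, caller and cutoff they used is not given in the sources at hand, and the control alignment was not analysed here. Per the labels, chromatin was sonicated (size range 200 to 800). The deposited signal value of each peak has no stated scale and served only to rank peaks within a list. Read depth is unknown, so no counting interval is given. The labels call the replicates biological but do not say whether they come from separate collections of embryos, so the SD measures the spread between these samples. Replicates shared 0 identical peaks.

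A summit is the peak start plus its deposited offset, which put 4 reproducible summits 1 base past their peak's end, among them the one 6242 bp upstream of C15. Starts came from Ensembl release 115 without transposable elements, and sequence from the RefSeq release 6 genome. No peak passed a chromosome end (0), and all 7 members overlapped their RefSeq positions. Replicate peaks were matched within 250 bp, the strongest being taken. The 9 words were searched on both strands within 50 bp of a summit. Python 3.11.15 and pandas 2.3.3 were used, and the counting scripts were tested on simulated data. The genes named are the members, genes with a start within 500 bp of a reproducible summit or nearest to the strongest summit of a member, and, of the 2 other lists, at most the 5 strongest occupied genes and the unoccupied ones where 5 or fewer. CheB93a was named after its values were seen, and so were the unoccupied genes of the NK-like list, which stand there only as its members. The members, lists and words were chosen with earlier results of these data known. Alternatives covered promoter distance, zone, match distance, word window, list depth and leaving out each replicate.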

Additional observations from a re-analysis of the deposited data

How the results depend on the processing

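Of 64 recomputed counts, shares and densities, 43 stayed within 1.5 times of the reported count or within 1 SD of the replicates, and 21 moved. With the strongest 5132 reproducible peaks, the tin to slou cluster held 6 summits (3.37 per 100 kb), and the member zones held 10, of which 60% were promoter summits and 1 held GCCATNTT. With the whole pooled list, the cluster held 57 (32.0 per 100 kb), and the zones 69, of which 21.7% were promoter summits and 7 held GCCATNTT. In that list 10 of the 15 other NK-like genes were occupied, beside 55.4% of all protein-coding genes. Ranking pooled summits by mean replicate rank gave 8.98 per 100 kb, and adding 10 kb to either end of the cluster 9.59. Without each replicate in turn the density was 7.86 to 9.54 per 100 kb and the promoter share 35% to 41.2%. The promoter share was 33.3% at 200 bp, 55.6% at 1000 bp and 22.2% with member starts only. At 200 bp 1 of the other NK-like genes was occupied, beside 31.8% of all protein-coding genes. Searching 100 bp to either side, 5 member summits held GCCATNTT. For this window, the strongest 5132 peaks and the whole pooled list, the share of all summits with the word was not counted. The alternatives for the mesoderm regulators and the density with 10 kb added were chosen after seeing the data. Read depth, which is unknown, limits what can be said of weak peaks such as that of C15.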
